A study of Mus musculus with 6 samples.

Results

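The unfolded protein response and the integrated stress response were described by 33 genes, chosen by symbol for their known roles, out of 40773 gene symbols in the table of counts. All 33 symbols were in the table. The filter on low counts left 32 of them for testing, and Derl3 had 0 counts in all 6 libraries. RNA came from the mouse macrophage line RAW264.7, labelled with a plain genotype. The tested cultures received lipopolysaccharide (LPS), a bacterial cell wall component that activates macrophages, at 100 ng/mL together with 3A2, an antibody that neutralizes the membrane protease MMP14, at 50 µg/mL. The cultures they are set against received LPS at 100 ng/mL alone, and both lasted 24 h. There were 3 biological replicates in each group, all of a single cell line and all under LPS. Cells without LPS and cells with a control antibody were not analysed here. The values therefore say nothing of what LPS itself does to these genes. Blocking of MMP14 and the presence of an antibody as such cannot be told apart.

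The unfolded protein response senses misfolded proteins in the endoplasmic reticulum (ER) through the membrane proteins ATF6, IRE1 (gene Ern1) and PERK (gene Eif2ak3). ATF6 and the spliced form of XBP1, made after IRE1 cuts its mRNA, switch on chaperones and the machinery that removes misfolded proteins. PERK phosphorylates the translation factor eIF2, a step shared with other kinases in the integrated stress response, which lowers general translation, favours translation of ATF4 and through it raises amino acid synthesis genes and the factor CHOP (gene Ddit3). In macrophages, both responses are known to meet Toll-like receptor signalling, since activated cells secrete much protein and IRE1 and XBP1 take part in cytokine production. Much of this control is on splicing, phosphorylation and translation, which counts per gene do not show: spliced and unspliced Xbp1 are counted together.

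Library totals were 6060732 to 6537419 counts with LPS plus 3A2 and 6431096 to 7432553 with LPS, and the members took 0.569% to 0.578% of all counts with LPS plus 3A2, against 0.578% to 0.586% with LPS. LPS plus 3A2 replicate 3 stood apart in mitochondrially encoded mRNAs, whose mean level there was 0.45 above the mean of all libraries on the log2 scale, against -0.14 and 0.11 in replicates 2 and 1 and -0.21 to -0.04 with LPS. Macrophage markers were all detected, 9 of 9, and summed to 6243 to 6683 CPM (counts per 1000000) with LPS plus 3A2, against 7173 to 7244 CPM with LPS. Most of that sum was Lyz2, at 0.871-fold with a Benjamini-Hochberg adjusted p of 0.719 by edgeR. The log2 fold change was below 0 for 8 of the 9 markers and above 0 for 1, and 0 passed an adjusted p of 0.05. At an unadjusted p under 0.05 by edgeR, 3 of 9 (33.3%) were lower, against 3.09% of all genes tested. For 3 of 9, every LPS plus 3A2 library lay below every LPS library, against 6.46% of all genes tested. Epithelial markers were at 0 in all libraries, 6 of 6. Lymphocyte and plasma cell markers summed to 22.8 to 27.2 CPM with LPS plus 3A2 and 23.5 to 24.7 CPM with LPS, with Cd3e, Cd4, Cd8a, Ms4a1 and Jchain among those at 0. Fibroblast and adipocyte markers summed to 27.3 to 29.5 CPM with LPS plus 3A2 and 26 to 30 CPM with LPS, with Col1a2, Lum and Adipoq at 0. Markers of neutrophils, mast cells and dendritic cells together reached 5.68 to 6.64 CPM with LPS plus 3A2 and 5.82 to 7.75 CPM with LPS. Mmp14, which encodes the target of the antibody, had 2, 6 and 3 counts with LPS plus 3A2 and 1, 5 and 0 with LPS. Its mRNA was thus near the limit of detection in both groups, and the protein was not measured here. The mRNA does not check a treatment that acts on the protein.

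Promoters of 14 members carry elements through which these responses are known to act, and some are shown because the elements belong to different arms of the response. Promoter windows, 250 bases before to 50 after the annotated start, came from RefSeq (GRCm38.p6) and were present for 29 of the 33 members. The ER stress response element (ERSE), spelled as CCAAT and CCACG with 9 bases of any kind between them and bound by ATF6 and XBP1 with NF-Y, was searched on both strands. It was found in the windows of 9 of the 29 members (31%), namely Hspa5, Hsp90b1, Pdia6, Calr, Canx, Dnajc3, Creld2, Syvn1 and Derl3, against 39 of 32851 windows in the whole table (0.119%). This is a property of genes picked for belonging to the response, and a match of letters is not a measured binding site. Only the exact spelling was searched, so copies that differ in a base are neither counted nor marked. In the 200 bases before the start of Hspa5, on the plus strand at chr2:34771890-34772089, the capitals mark the ERSE.
Hspa5: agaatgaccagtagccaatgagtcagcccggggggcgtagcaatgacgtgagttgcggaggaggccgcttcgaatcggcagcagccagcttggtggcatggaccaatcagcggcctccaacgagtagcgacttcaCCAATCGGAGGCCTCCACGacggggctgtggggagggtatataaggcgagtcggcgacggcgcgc

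Hsp90b1 was the only member with a pair of exact ERSE matches, in opposite orientations, and the matches in Pdia6 and Creld2 lay at similar distances from the start. They are printed on the strand of the gene with the element in capitals. The Hsp90b1 windows are on the minus strand at chr10:86705628-86705666 and chr10:86705523-86705561, that of Pdia6 is on the plus strand at chr12:17266481-17266519, and that of Creld2 is on the plus strand at chr15:88819510-88819548.
Hsp90b1, far: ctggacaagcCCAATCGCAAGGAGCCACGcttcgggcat
Hsp90b1, near: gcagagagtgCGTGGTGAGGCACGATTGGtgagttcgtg
Pdia6: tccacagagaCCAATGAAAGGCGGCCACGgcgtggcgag
Creld2: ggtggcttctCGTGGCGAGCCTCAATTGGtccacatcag

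The ATF4 arm was searched for the C/EBP-ATF response element (CARE), spelled TGATGNAA, on both strands. It was found in the windows of Chac1, Trib3, Asns and Herpud1, 4 of 29 members (13.8%), against 3.97% of all windows. Herpud1, which links the degradation machinery to ER stress, was the only member with elements of both kinds, since its window also holds the ERSE-II, spelled as ATTGG and CCACG with 1 base between them. ERSE-II was found in 2 of 29 members, Herpud1 and Dnajb11, against 0.0365% of all windows, and the element TGACGTGG (UPRE) in 0 of 29, against 0.676%. The capitals mark the CARE in Chac1 (plus strand, chr2:119351039-119351066), in Asns (minus strand, chr6:7693215-7693242) and in Herpud1 (plus strand, chr8:94386307-94386334), and the ERSE-II in Herpud1 (chr8:94386367-94386397).
Chac1: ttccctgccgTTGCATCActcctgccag
Asns: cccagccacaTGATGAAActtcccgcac
Herpud1, CARE: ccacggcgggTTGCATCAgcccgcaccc
Herpud1, ERSE-II: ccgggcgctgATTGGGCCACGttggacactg

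**Figure D1:**
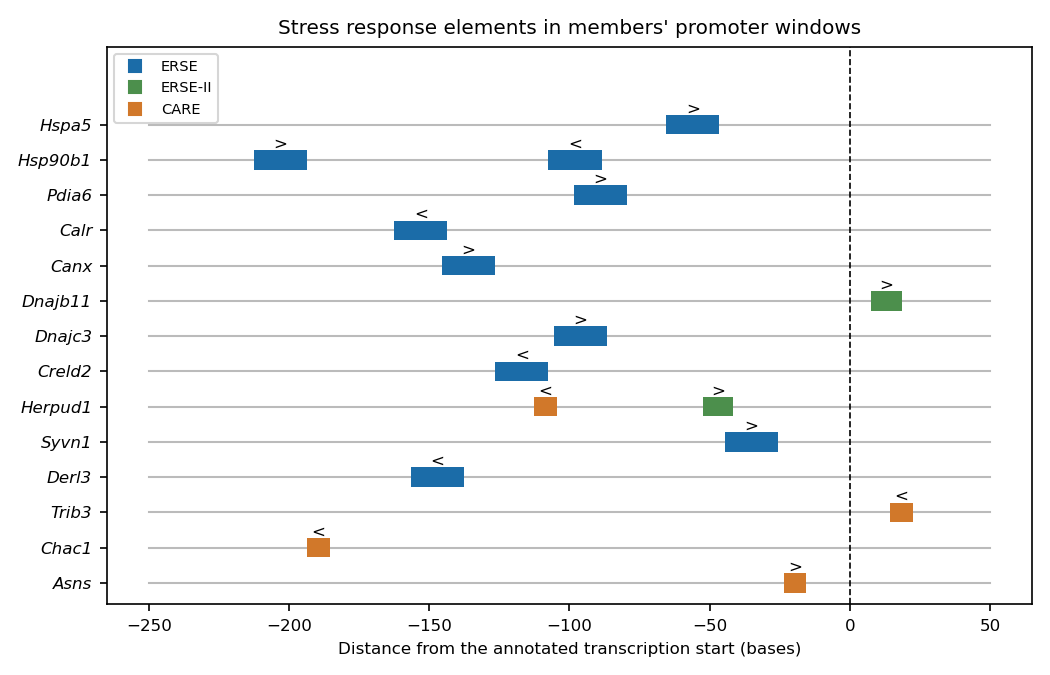
Positions of the ERSE, ERSE-II and CARE in the promoter windows of the 14 members with a match, drawn to scale in bases from the annotated transcription start (dashed line). Arrowheads give the orientation. Hsp90b1 holds a pair of ERSE matches, Herpud1 holds a CARE and an ERSE-II, and the matches in Dnajb11 and Trib3 lie after the start.

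The comparison asks whether adding the antibody 3A2 to LPS-treated macrophages was accompanied by different mRNA levels of stress response genes. RNA was taken from whole cultures, so a change in the number of responding cells and a change per cell cannot be told apart. Levels of the members were close in the 2 groups, and 0 of the 32 tested members passed an adjusted p of 0.05 by edgeR's quasi-likelihood test, where 0% of all 11498 tested genes were called. The smallest adjusted p of a member was 0.748, and DESeq2 and limma-voom called 0 members as well. At an unadjusted p under 0.05 there was 1 member (3.12%) by edgeR, Ppp1r15a, which was lower. Of all genes 6.51% were past that line, with 3.09% of all genes past it and lower, and DESeq2 and limma-voom put 0 members past it. The groups did not overlap for 4 of 32 members (12.5%), against 12.3% of all genes, so the members' share lies at the background. Sel1l and Asns were those with every LPS plus 3A2 library above every LPS library, and Pdia4 and Trib3 those with every one below. A fold change below 1 was found in 17 of the 32 members, against 49.6% of all genes, and the other 15 lay above. The median log2 fold change was -0.01 over the members and 0.0017 over all genes tested. Narrow bounds were common: the 95% interval was inside 1.2-fold on both sides for 20 members (62.5%), against 26.1% of all genes. That share was 47.9% among 144 tested genes of further lists of the pathway. The members' interval was inside 2-fold for 31 of 32, Trib3 being the exception. The members' median standard error was 0.08 on the log2 scale, against 0.12 for all genes.

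**Figure D2:**
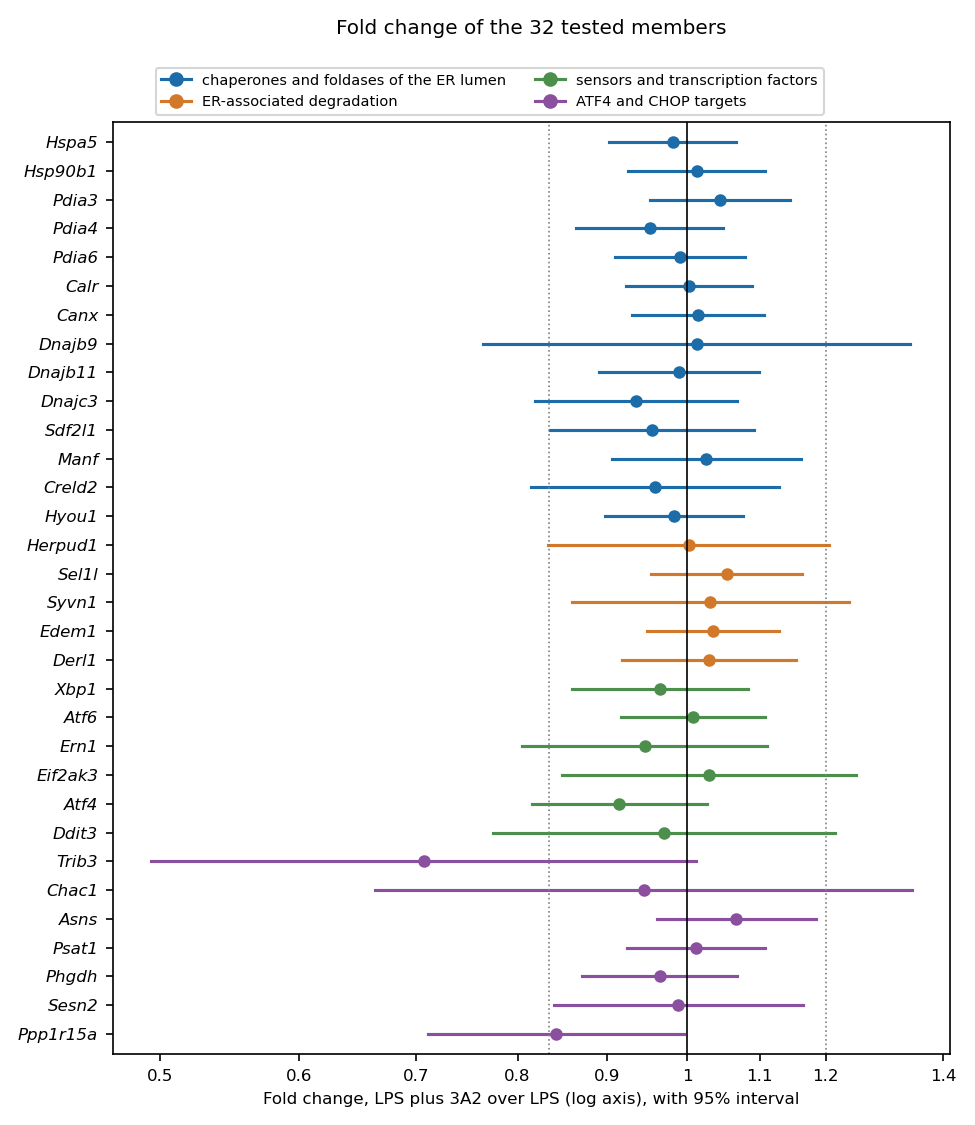
Fold change of the 32 tested members, LPS plus 3A2 over LPS on a log axis, with points for the estimate and lines for the 95% interval, coloured by role. Dotted lines stand at 1.2-fold in either direction. Intervals of 20 members lie within the dotted lines, Trib3 at 0.707 lies farthest from 1, and the interval of Ppp1r15a ends just below 1.

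Chaperones and foldases of the ER lumen included the most deeply counted members, and 11 of 14 of their intervals lay inside 1.2-fold. Of 14 tested, 6 lay above 0 and 8 below, with folds of 0.935 to 1.04, and 0 passed; the median was -0.01 on the log2 scale. Hspa5 encodes BiP, the chaperone that holds the sensors inactive until misfolded proteins draw it away. It measured 544, 532 and 540 CPM with LPS plus 3A2, against 544, 568 and 535 CPM with LPS. The groups overlapped, and the fold change was 0.981 (95% interval 0.902 to 1.07, edgeR adjusted p = 0.945). Hsp90b1 encodes GRP94, the HSP90 of the ER, which folds Toll-like receptors and integrins. It measured 715, 654 and 740 CPM with LPS plus 3A2 and 728, 682 and 672 CPM with LPS. Its highest and its lowest library were both in the LPS plus 3A2 group, at 1.01-fold (0.926 to 1.11).

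The protein disulfide isomerases, which form and rearrange disulfide bonds, did not share a direction. Pdia3, which works with calreticulin and calnexin and in peptide loading of MHC class I, measured 453, 424 and 485 CPM with LPS plus 3A2 and 447, 425 and 433 CPM with LPS. These groups overlapped, at 1.04-fold (0.952 to 1.14). Pdia4 measured 139, 134 and 135 CPM with LPS plus 3A2 and 142, 142 and 144 CPM with LPS. All of its LPS plus 3A2 libraries lay below all of its LPS libraries, at 0.952-fold (0.864 to 1.05, edgeR adjusted p = 0.852). The groups were not overlapping and lower for 6.46% of all genes tested. Pdia6, which also acts on the IRE1 sensor, stood at 0.99-fold (0.909 to 1.08).

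Calr and Canx encode calreticulin and calnexin, lectin chaperones that hold newly made glycoproteins, and stood at 1.00-fold (0.922 to 1.09) and 1.01-fold (0.93 to 1.11). Dnajc3 encodes p58IPK, a BiP co-chaperone also known as an inhibitor of eIF2 kinases. It measured 48.3, 47 and 43 CPM with LPS plus 3A2 and 52, 49.4 and 46.4 CPM with LPS. With overlapping groups it had the lowest fold of the chaperones, at 0.935 (0.818 to 1.07). The other BiP co-chaperones were Dnajb11 at 0.99-fold (0.891 to 1.1), Sdf2l1, which pairs with it, at 0.955-fold (0.835 to 1.09), and Dnajb9 at 1.01-fold. Dnajb9, which returns BiP to IRE1, varied most between replicates among the chaperones, with 14.4, 8.3 and 16 CPM in the LPS plus 3A2 libraries and 13.6, 11.5 and 13 CPM with LPS, and its interval ran from 0.765 to 1.34. The nucleotide exchange factor Hyou1 stood at 0.983-fold (0.898 to 1.08), the secreted factor Manf at 1.03-fold (0.906 to 1.16) and Creld2, a secreted ER stress protein, at 0.958-fold (0.814 to 1.13). Creld2 had 47.9, 45.3 and 33.5 CPM with LPS plus 3A2 and 43.9, 44.5 and 44.1 CPM with LPS, so a single library lay apart, LPS plus 3A2 replicate 3.

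Genes of ER-associated degradation, which draws misfolded proteins back to the cytosol for the proteasome, all had estimates above 0 where tested, 5 of 5, and 0 passed. Their median log2 fold change was 0.04, their folds ran from 1.00 to 1.05, and all of their intervals lay within 1.5-fold. Sel1l, the adaptor that holds the HRD1 ubiquitin ligase complex together, measured 129, 128 and 133 CPM with LPS plus 3A2 and 120, 125 and 126 CPM with LPS. Its groups did not overlap, higher with LPS plus 3A2, which held for 5.84% of all genes tested, at 1.05-fold (0.953 to 1.16, edgeR adjusted p = 0.847). Edem1, a lectin that hands over glycoproteins for degradation, had the most counts of this group and measured 492, 487 and 529 CPM with LPS plus 3A2 and 490, 479 and 488 CPM with LPS. Both of its groups held values near 490 CPM, and it stood at 1.03-fold (0.949 to 1.13). Derl1, a part of the exit channel, measured 80.3, 81.3 and 89.5 CPM with LPS plus 3A2 and 86.3, 78 and 79.7 CPM with LPS, with overlapping groups and 1.03-fold (0.918 to 1.15). Syvn1, which encodes HRD1 itself, stood at 1.03-fold (0.86 to 1.24) and Herpud1 at 1.00-fold (0.833 to 1.21). Derl3, which is found mainly in secretory cells, had 0 counts in each library, which allows up to 0.401 to 0.50 CPM in a library (3 counts, counting error only), although its promoter window holds an ERSE. That side depended on single libraries: 3 of 5 lay above 0 without LPS replicate 2, with a median of 0.01, and 3 of 5 without LPS plus 3A2 replicate 2, with a median of 0.06. Without LPS plus 3A2 replicate 3 or without LPS replicate 1, 4 of 5 lay above 0, with medians of 0.03 and 0.06. With the mitochondrial mRNA level as a covariate 3 of 5 did, with a median of 0.06.

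**Figure D3:**
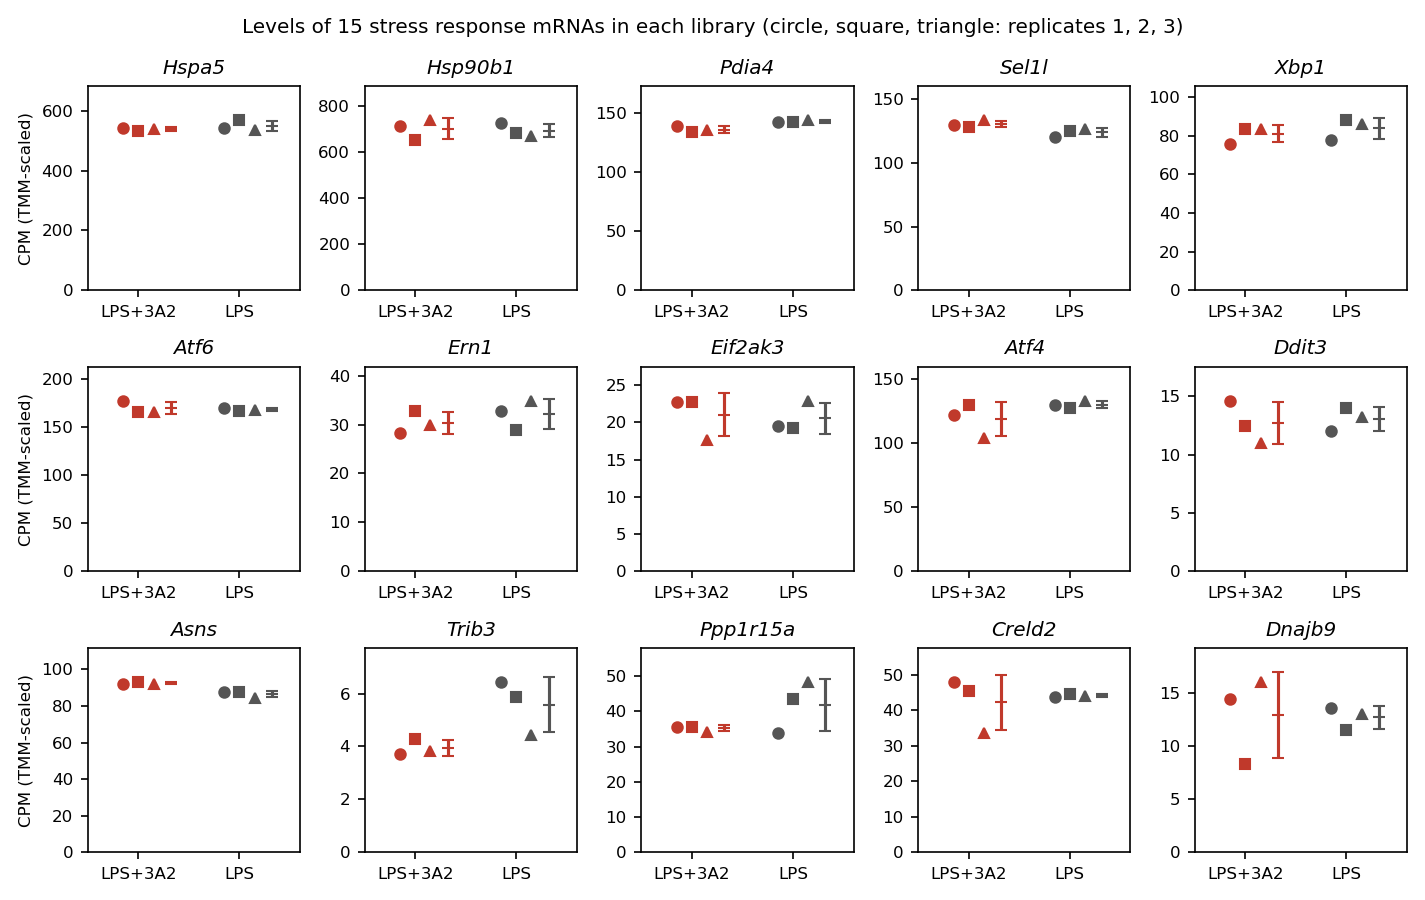
TMM-scaled CPM of 15 members in each library, LPS plus 3A2 in red and LPS in grey, from 0 on a linear axis, with the mean and SD of 3 replicates beside the points. Most groups overlap. The LPS plus 3A2 values of Trib3 and Pdia4 lie below those of LPS, and those of Sel1l and Asns lie above. LPS plus 3A2 replicate 3 is the lowest library for Eif2ak3, Atf4, Ddit3 and Creld2.

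Sensors and transcription factors showed 0 calls among 6 tested, with 2 above 0 and 4 below and a median log2 fold change of -0.05. Atf6, whose protein is cut in the Golgi to release a transcription factor, measured 178, 166 and 166 CPM with LPS plus 3A2 and 170, 168 and 169 CPM with LPS. It had overlapping groups and 1.01-fold (0.916 to 1.11). Ern1 encodes IRE1 alpha, the kinase and nuclease that splices Xbp1 mRNA. It measured 28.2, 32.7 and 30 CPM with LPS plus 3A2 and 32.8, 28.8 and 34.8 CPM with LPS, at 0.946-fold (0.805 to 1.11) and with overlapping groups. Xbp1 measured 75.8, 83.3 and 83.5 CPM with LPS plus 3A2 and 77.5, 88 and 85.8 CPM with LPS. The groups overlapped at 0.965-fold (0.86 to 1.08), with replicate 1 the lowest library in each.

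Eif2ak3 encodes PERK and measured 22.7, 22.7 and 17.7 CPM with LPS plus 3A2 and 19.4, 19.2 and 22.8 CPM with LPS. The lowest library was LPS plus 3A2 replicate 3, and the fold change was 1.03 (0.848 to 1.25). Atf4, the central factor of the integrated stress response, measured 122, 130 and 104 CPM with LPS plus 3A2 and 129, 127 and 133 CPM with LPS. Its LPS libraries lay close together while its LPS plus 3A2 libraries spread, at 0.915-fold (0.815 to 1.03, edgeR adjusted p = 0.805). Without LPS plus 3A2 replicate 3 the log2 fold change of Atf4 was -0.04, against -0.13 with all libraries, and without LPS plus 3A2 replicate 2 it was -0.20 where edgeR gave an adjusted p of 0.23, the smallest of any member under any setting run. Ddit3 encodes CHOP, a factor that promotes death under lasting stress, and measured 14.6, 12.4 and 11 CPM with LPS plus 3A2 and 12, 14 and 13.2 CPM with LPS. Its groups overlapped at 0.97-fold, and the lower depth left a wider interval of 0.774 to 1.21.

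Targets of ATF4 and CHOP held the members with the lowest fold changes, though 0 of 7 tested passed, and 2 lay above 0 and 5 below with a median log2 fold change of -0.05. Trib3 encodes a pseudokinase that CHOP and ATF4 induce and that restrains ATF4. It had 23, 28 and 23 counts with LPS plus 3A2 and 44, 44 and 29 counts with LPS, which is 3.73, 4.3 and 3.83 CPM with LPS plus 3A2 and 6.43, 5.88 and 4.44 CPM with LPS. All LPS plus 3A2 libraries lay below all LPS libraries, at 0.707-fold (0.494 to 1.01). By edgeR the unadjusted p was 0.0573 and the adjusted p 0.756. Leaving out each library in turn gave log2 fold changes of -0.64 to -0.39 with adjusted p-values of 0.358 to 0.996. Ppp1r15a encodes GADD34, which brings a phosphatase to eIF2 and so ends the translation block. It measured 35.6, 35.6 and 34.2 CPM with LPS plus 3A2 and 33.8, 43.4 and 48.3 CPM with LPS. The LPS plus 3A2 libraries lay close together inside the lower part of a wide LPS range, and LPS replicate 1 was the lowest of all. The fold change was 0.841 (0.711 to 0.996), with an unadjusted p of 0.0448 and an edgeR adjusted p of 0.748. On the log2 scale Ppp1r15a stood at -0.25 over all libraries, at -0.14 without LPS replicate 3 and at -0.38 without LPS replicate 1.

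Amino acid synthesis genes of the ATF4 arm lay on both sides of 1. Asns, the asparagine synthetase, measured 91.8, 93.1 and 92.3 CPM with LPS plus 3A2 and 87.7, 87.6 and 84.6 CPM with LPS. Its groups did not overlap, higher with LPS plus 3A2, at 1.07-fold (0.961 to 1.18, edgeR adjusted p = 0.831). The direction of Asns is opposite to that of Trib3, the other member of this arm whose groups did not overlap, and both windows hold a CARE. Psat1 and Phgdh, consecutive enzymes of serine synthesis, stood at 1.01-fold (0.923 to 1.11) and 0.964-fold (0.871 to 1.07). Psat1 measured 238, 240 and 241 CPM with LPS plus 3A2 and 226, 236 and 249 CPM with LPS, so all LPS plus 3A2 values lay inside the LPS range. Chac1, which breaks down glutathione, had 29 to 33 counts in LPS plus 3A2 libraries and 29 to 44 in LPS libraries, at 0.944-fold, with a wide interval of 0.663 to 1.34 at this depth. Sesn2, a stress-induced inhibitor of mTORC1, stood at 0.988-fold (0.839 to 1.16).

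The mean levels of the sensors and factors and of the ATF4 and CHOP targets were lowest in LPS plus 3A2 replicate 3 and highest in LPS replicate 3, although of their 13 members 5 were lowest in LPS plus 3A2 replicate 3 and 6 highest in LPS replicate 3. The mean of the 6 sensors and factors, on the log2 scale relative to all libraries, was 0.02, 0.04 and -0.12 with LPS plus 3A2 and -0.02, 0.0062 and 0.08 with LPS. For the 7 ATF4 and CHOP targets it was -0.04, -0.03 and -0.09 with LPS plus 3A2 and -0.01, 0.07 and 0.09 with LPS. The chaperones did not repeat this order, with 0.03, -0.05 and -0.006 with LPS plus 3A2 and 0.01, -0.00029 and 0.02 with LPS. Without LPS plus 3A2 replicate 3 the median log2 fold change was 0.0009 for the ATF4 and CHOP targets and -0.0084 for the sensors and factors, and with the mitochondrial mRNA level as a covariate it was 0.03 and 0.01. That library was also the one with the highest mitochondrial mRNA level, whose part in these values was not tested. LPS plus 3A2 replicate 3 was the lowest library for 10 of the 32 members, against 27.5% of all genes tested, and LPS replicate 3 the highest for 10, against 17%.

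**Figure D4:**
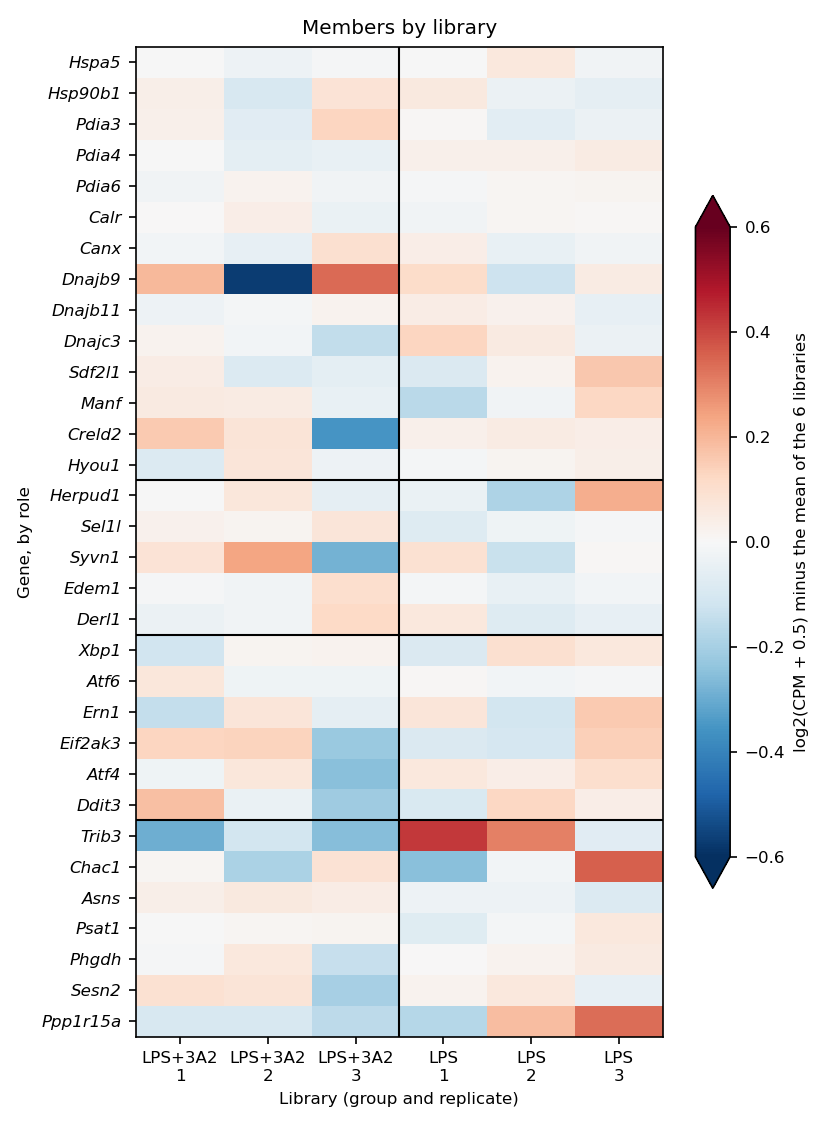
Level of each tested member in each library as log2(CPM + 0.5) minus the mean of the 6 libraries, red above and blue below, with genes in rows by role (chaperones, degradation, sensors and factors, ATF4 and CHOP targets). Most cells are pale, and the darker ones include cells of Dnajb9, Creld2, Syvn1, Trib3, Chac1 and Ppp1r15a. The darker cells of Trib3 are in several libraries, blue with LPS plus 3A2 and red with LPS. The darkest cell of Ppp1r15a is in LPS replicate 3.

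Across roles, the levels spanned a wide range once divided by exon length. That length joined the exons of all annotated transcripts of a gene in GENCODE M21, which may differ from the annotation used for counting. It can be longer than any single mRNA of the gene, and the order of genes depends on it. On this scale, CPM per kilobase, Calr was the highest member at 202 ± 5.62 with LPS plus 3A2 and 202 ± 2.59 with LPS (SD, n = 3), followed by Hsp90b1 at 174 ± 11 and 172 ± 7.38. Canx at 134 ± 7.08 with LPS plus 3A2 and 133 ± 4.02 with LPS did not differ beyond its spread from Hspa5 at 127 ± 1.4 and 130 ± 4.11. Atf4, at 50.2 ± 5.6 with LPS plus 3A2 and 55 ± 1.18 with LPS, was the highest of the sensors and factors. Xbp1 stood at 24.9 ± 1.35 and 25.8 ± 1.71, while the sensors Ern1, at 3.71 ± 0.28 and 3.93 ± 0.369, and Eif2ak3, at 3.49 ± 0.483 and 3.4 ± 0.335, were the lowest of that group, Ddit3 apart. Chac1 and Trib3 were the lowest members with counts, at 3.08 ± 0.327 and 1.86 ± 0.144 with LPS plus 3A2 and 3.27 ± 0.778 and 2.63 ± 0.483 with LPS. Ddit3 was left out, because its symbol has more than 1 gene entry in that annotation.

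Fold changes of members with and without these elements covered overlapping ranges. The 8 tested members with an ERSE had 4 above 0 and 4 below, with folds of 0.935 to 1.03. The 4 with a CARE had 2 above and 2 below, with folds of 0.707 to 1.07, and the 15 tested members whose windows held none of the elements had 6 above and 9 below, with folds of 0.841 to 1.05.

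The wider pathway held 0 calls among 144 tested genes of 8 further lists. At an unadjusted p under 0.05 there were 12 of them (8.33%), 6 higher and 6 lower, against 6.51% of all genes. Among 21 other ER folding genes, 11 lay above 0 and 10 below, with a median of 0.02. Erp44, which retains folding enzymes in the early secretory pathway, measured 66.3 ± 6.23 CPM with LPS plus 3A2 and 54.3 ± 6.6 CPM with LPS (1.22-fold, 1.06 to 1.4), and Selenof, a selenoprotein partner of the glycoprotein folding sensor, 145 ± 14.8 and 123 ± 8.99 CPM (1.18-fold, 1.05 to 1.33). Neither passed, at an adjusted p of 0.719 each by edgeR, and P4hb, the most deeply counted disulfide isomerase of the list, stood at 0.95-fold. Of 20 other degradation genes 9 lay above 0 and 11 below, with Edem2 at 0.865-fold (0.763 to 0.98), Os9, a glycan-reading lectin, at 0.908-fold and Vcp, the extraction ATPase, at 1.01-fold. Their median was -0.0005, and with DESeq2 size factors 11 lay above 0 and 9 below.

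Genes of translocation into the ER and export from it lay above 0 in 20 of 25, with a median of 0.09 on the log2 scale and 0 calls by edgeR. Ssr3, a subunit of the translocon-associated complex, stood at 1.15-fold (1.01 to 1.32), Spcs1 of the signal peptidase at 1.13-fold (0.984 to 1.29) and Srpr, the most deeply counted, at 1.00-fold. Without LPS plus 3A2 replicate 3 the median was 0.05 with 22 of 25 above 0, and with the mitochondrial mRNA level as a covariate it was 0.04 with 19 of 25. Other ATF4 targets lay below 0 in 24 of 33, with a median of -0.04 and 0 calls. Among them were Cebpb, a partner of ATF4 and a factor of macrophage activation, at 202 ± 20.2 CPM with LPS plus 3A2 and 231 ± 7.14 CPM with LPS (0.877-fold, 0.79 to 0.973, edgeR adjusted p = 0.719), the stress-induced Nupr1 at 0.81-fold (0.655 to 1.00) and the transfer RNA synthetase Sars at 0.961-fold. Without LPS plus 3A2 replicate 3 the median of this list was -0.008 with 21 of 33 below 0, and with the covariate -0.0051 with 17 of 33.

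Other stress sensors and genes of eIF2 control had 9 above 0 and 10 below of 19. Mbtps2, the protease that makes the second cut of ATF6, stood at 1.2-fold (1.02 to 1.4), the amino acid sensor Eif2ak4 at 0.903-fold (0.789 to 1.03) and Eif2s1, which encodes the alpha subunit of eIF2, at 1.05-fold. Cell death genes linked to CHOP had 2 above 0 and 4 below of 6. Bbc3, which encodes PUMA, measured 15.6 ± 1.4 CPM with LPS plus 3A2 and 19.8 ± 0.451 CPM with LPS (0.791-fold, 0.655 to 0.956), and Bcl2l11, which encodes BIM, 91.6 ± 3.05 and 80.9 ± 3.41 CPM (1.13-fold, 1.02 to 1.26), so these death-promoting genes of a single family lay on opposite sides and neither passed, at adjusted p-values of 0.719 and 0.743 by edgeR. Bak1 stood at 0.976-fold. Cytosolic heat shock genes had 3 above 0 and 7 below of 10, with the heat shock factor Hsf1 at 0.849-fold (0.722 to 0.998), Dnaja1 at 1.13-fold and Hspa8 at 0.932-fold (0.857 to 1.01). Mitochondrial stress genes had 5 above 0 and 5 below of 10, with the protease Lonp1 at 0.895-fold (0.814 to 0.983), Hspe1 at 1.13-fold (0.958 to 1.32) and Hspd1 at 1.03-fold.

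**Figure D5:**
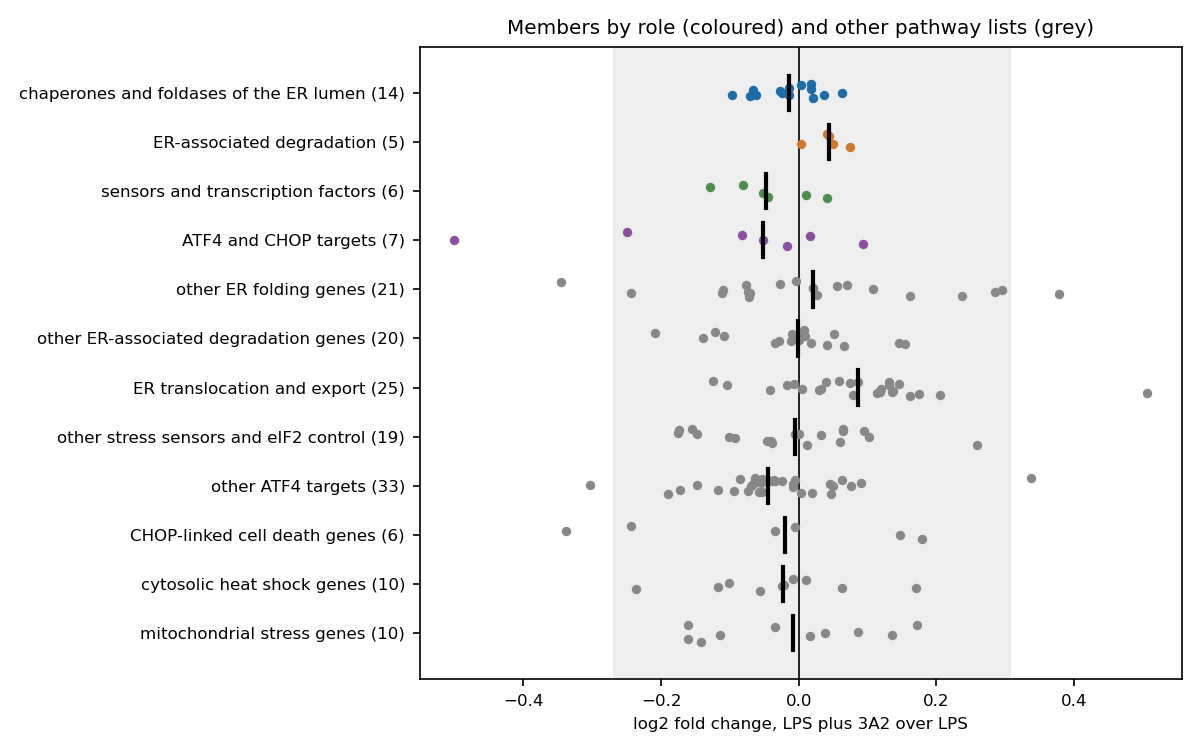
Log2 fold change, LPS plus 3A2 over LPS, of the members by role (coloured points) and of the genes of 8 further lists (grey points), with the number tested in brackets and the median as a black bar. The shaded band holds all genes tested from the 5th to the 95th percentile, from -0.27 to 0.31. Medians of all 12 groups lie close to 0, that of ER translocation and export being the highest.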

How the data were processed

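RNA from 6 cultures of RAW264.7 cells was rRNA-depleted and sequenced as strand-specific paired-end libraries, per the labels' protocols. The authors deposited raw counts per gene symbol, 1 column per library, without pooling. HISAT2 and edgeR are named without version or role, with build GRCh38, per the submitters' processing notes; the symbols are of mouse (39282 of 40773 match RefSeq GRCm38), and the sources used here do not give the counting program, its annotation or its strand setting. Reads of overlapping or near-identical genes may therefore be misassigned. Typed cells in 3 unnamed columns were not used, and 0 rows lacked a gene name.

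Titles gave the group and the replicate number. Counts were filtered with filterByExpr (11498 of 18179 genes with a count), scaled by TMM and tested for LPS plus 3A2 over LPS by the robust quasi-likelihood test of edgeR 4.0.16 (R 4.3.3), two-sided, without covariates, adjusted by Benjamini-Hochberg over all tested genes at 0.05. CPM used TMM-scaled totals. Intervals are at the 95% level. The test was tried on simulated data. No replicate pair agreed within sampling noise (chi-square per degree of freedom 3.33 to 22). Alternatives were DESeq2 1.42.0, limma-voom (limma 3.58.1), DESeq2 size factors, library totals that leave out mitochondrial genes and the top 20 genes, keeping every gene with a count, requiring 1 CPM in each library, the replicate number as a block, a mitochondrial mRNA covariate, a threshold of 0.1, and leaving out each library.

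Members and lists were chosen with earlier results of these data known. Values per library were given for the sensors and factors, Hspa5, and, in each role, the 3 members of smallest p and that of most counts. In other lists the 2 of smallest p and that of most counts were named. Creld2, Dnajb9 and Chac1 were added after their values were seen. Medians of lists with that covariate, or leaving out LPS plus 3A2 replicate 3, were also added then.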

Additional observations from a re-analysis of the deposited data

How the results depend on the processing

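No member was called by edgeR, DESeq2 or limma-voom under any of the 14 alternative fits or at a threshold of 0.1, and the smallest adjusted p was 0.23. The members' median log2 fold change ran from -0.023 to -0.0026 when single libraries were left out. Over all genes, where the fit as reported called 0, edgeR called 13 higher and 3 lower without a filter on low counts, and 18 higher and 14 lower with the mitochondrial mRNA covariate. Leaving out single libraries gave 0 to 20 higher and 0 to 4 lower, the most without LPS plus 3A2 replicate 2. No pairing of libraries by replicate number was seen, in deviations from the mean of only 3 libraries per group. Same-numbered deviations correlated at -0.010, 0.025 and -0.16. None of the LPS plus 3A2 libraries correlated best with the LPS library of its own number. With the replicate block 1 gene was called higher, and it was no member.

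Signs of the log2 fold change, none of them called, changed for 13 of 32 members with the covariate and for 18 of 32 when some single library was left out, and the cause was not tested. Values are given for members with values per library in the report and for the widest others. With the covariate the log2 fold change was 0.0089 for Atf4, 0.062 for Ddit3, -0.033 for Pdia3, -0.075 for Hsp90b1, -0.0083 for Edem1, -0.042 for Derl1, -0.41 for Dnajb9 and 0.12 for Creld2. Leaving out single libraries gave -0.021 to 0.027 for Atf6, -0.019 to 0.15 for Eif2ak3, -0.16 to 0.045 for Ddit3, -0.019 to 0.068 for Hsp90b1, -0.0081 to 0.087 for Derl1, -0.015 to 0.052 for Psat1, -0.17 to 0.26 for Dnajb9, -0.22 to 0.11 for Chac1, -0.076 to 0.18 for Syvn1, -0.16 to 0.078 for Creld2 and -0.090 to 0.12 for Herpud1. Trib3, Chac1, Ddit3 and Dnajb9 had the fewest counts, and depth limits what can be said of them.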
